A study of Arabidopsis thaliana with 6 samples.

Results

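The nuclear genes of the photosystems and their light-harvesting antennae were examined for peaks of the WIP zinc finger proteins TT1 and NTT. The genes were chosen by name alone, as nuclear genes of the RefSeq annotation of TAIR10.1 whose symbol or synonym starts with LHCA or LHCB, or is PSA or PSB followed by the letter of a photosystem subunit. This gave 46 of 27444 nuclear protein-coding genes, with 18, 10, 8, 6 and 4 genes on chromosomes 1 to 5. They were 6 LHCA genes of the photosystem I antenna, 9 genes of the LHCII trimers (LHCB1 to LHCB3), 6 genes of the minor photosystem II antenna (LHCB4 to LHCB7), 13 photosystem I subunit genes, 7 genes of the oxygen-evolving proteins and 5 genes of other photosystem II subunits. Genes in the plastid genome were not part of the set. A gene was called where the summit of a deposited peak lay from 2 kb upstream of its transcription start site (TSS) to its end, and positions are given in bp from the TSS, with negative values upstream. The nearest start to a peak was taken from the center of the peak and not from its summit, over all annotated nuclear transcript starts.

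ChIP-seq against GFP was done on seedlings of Arabidopsis thaliana, accession Columbia-0, that were 7 days old and treated with 1 µM dexamethasone (Dex) for 8 h. The Dex:TT1-GFP line gave 1 ChIP library and 1 input library, and the Dex:NTT-GFP line gave 2 ChIP libraries and 2 input libraries, each from a pool of whole seedlings. In both lines the fusion is expressed from a Dex-inducible system whose activator is driven by a constitutive promoter, so that binding was not limited to the cells that normally make each protein and was measured over all cell types together. The deposited lists held 12908 peaks for TT1, 16167 for NTT replicate 1 and 7447 for replicate 2. No peak list of the inputs was used, the read depth is not given in the lists, and TT1 has no replicate. Values are therefore reported as counts beside those of all genes and as fold enrichments (ChIP signal over local background at the summit, as written by MACS2) ranked within their own library. No test between TT1 and NTT was possible and fold enrichments were not compared between libraries.

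In plants, light is captured by chlorophyll-binding LHC proteins and passed to photosystem II, which oxidizes water, and to photosystem I, which reduces ferredoxin. The reaction centre cores are encoded mostly in the plastid, whereas the antenna proteins and many peripheral subunits are encoded in the nucleus and imported. Their nuclear genes are strongly transcribed in green tissue, are activated by light, and often exist as near-identical copies. Their promoters are known for short elements such as the G-box (CACGTG), which is bound by bZIP and bHLH factors including HY5 and the PIFs, the I-box (GATAAG) and the CCAAT box.

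The stretches just upstream of 5 genes are shown because they hold summits of all 3 libraries (LHCB1.5 and LHCB4.2), a TT1 summit just upstream of the start (PSAH1 and PSAD1), or are the matching stretch of a copy with no peak (PSAH2). Each run is read 5′ to 3′ on the strand of the gene and ends at the last base before the TSS. Capitals mark matches on either strand to the G-box CACGTG, its ABRE core ACGTG, the CCAAT box form CCAATC, the I-box GATAAG and the TATA box TATAAA, and neighbouring matches run together.
PSAH1, chr3:5469595-5469794, minus strand: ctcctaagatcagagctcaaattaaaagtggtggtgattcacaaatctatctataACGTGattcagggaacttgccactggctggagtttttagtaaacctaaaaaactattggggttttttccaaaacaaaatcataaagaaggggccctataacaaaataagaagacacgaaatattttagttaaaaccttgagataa
PSAH2, chr1:19454768-19454797, plus strand: gatgacaacccaattcgcCACGTGgcagaa
LHCB1.5, chr2:14523569-14523768, minus strand: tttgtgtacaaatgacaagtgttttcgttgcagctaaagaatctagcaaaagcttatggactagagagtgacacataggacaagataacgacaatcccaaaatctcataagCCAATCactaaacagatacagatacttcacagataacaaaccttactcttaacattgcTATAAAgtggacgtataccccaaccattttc
LHCB4.2, chr3:2717377-2717556, plus strand: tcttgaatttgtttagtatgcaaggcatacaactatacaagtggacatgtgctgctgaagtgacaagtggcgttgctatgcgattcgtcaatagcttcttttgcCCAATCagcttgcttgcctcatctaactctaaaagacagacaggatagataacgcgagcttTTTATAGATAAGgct
PSAD1, chr4:1230165-1230364, minus strand: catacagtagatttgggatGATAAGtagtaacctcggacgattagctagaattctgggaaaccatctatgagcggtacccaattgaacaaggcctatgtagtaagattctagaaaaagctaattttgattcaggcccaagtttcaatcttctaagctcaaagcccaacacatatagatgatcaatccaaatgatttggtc
The PSAH2 run is short because an exon of its divergent neighbour AT1G52220 begins just upstream, and the LHCB4.2 run likewise stops before the gene upstream of it.

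TT1 peaks called 15 of the 46 genes, or 32.6%, beside 38.3% of all coding genes. NTT replicate 1 called 20 genes, or 43.5%, beside 44.7% of all coding genes. NTT replicate 2, the library with the fewest peaks, called 20 genes as well, beside 26.8% of all coding genes. With this window the share in NTT replicate 1 was thus near the background, on its lower side. The share in TT1 was modestly below it, and that in NTT replicate 2 was above it. The direction depended on the setting for TT1, which had 28.3% beside 25.1% when the same number of best peaks was taken from every library, and for NTT replicate 1, which had 39.1% beside 29.9% for summits within 500 bp of the start. The windows searched were shorter for the photosystem and antenna genes, with a median of 3386 bp, than for all coding genes, with 4078 bp. Peaks lay in the windows of 16 genes in both NTT libraries (34.8%, beside 24.4% of all coding genes) and of 12 genes in all 3 libraries (26.1%, beside 20.2%). With the same number of best peaks from every library, both NTT libraries called 9 genes (19.6%, beside 18.5%). No peak of any library lay at 20 genes (43.5%, beside 47.9%).

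**Figure D1:**
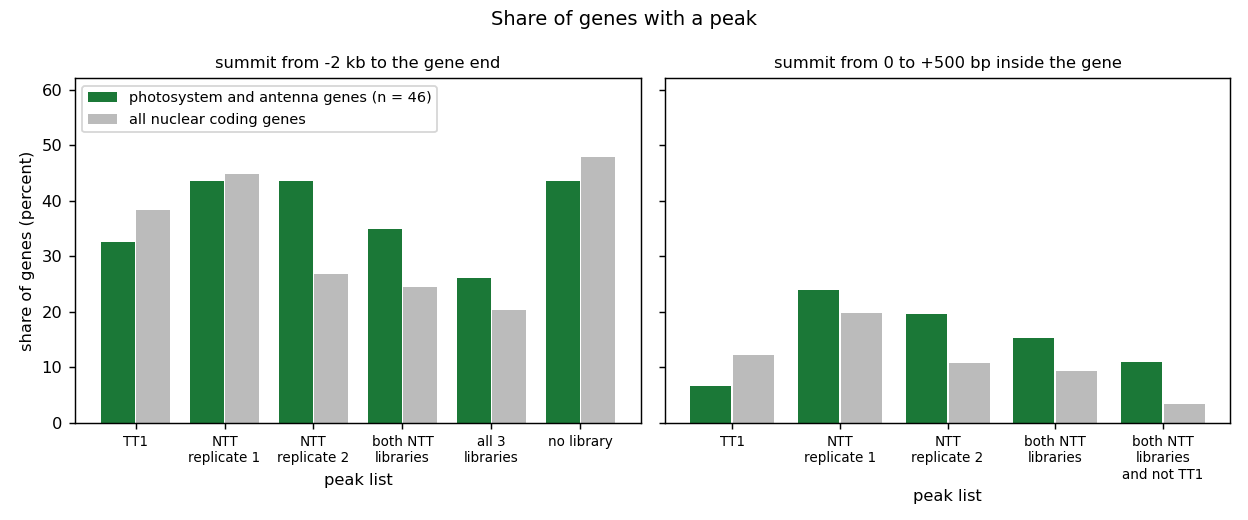
Share of genes with a peak, in percent, for the 46 photosystem and antenna genes (green) and all 27444 nuclear coding genes (grey), for summits from 2 kb upstream to the gene end on the left and for summits from 0 to +500 bp inside the gene on the right. The green bar stands above the grey bar in NTT replicate 2 (43.5% and 26.8%) and below it in TT1 (32.6% and 38.3%).

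The 12 genes with a peak in all 3 libraries were LHCA2, LHCB1.4, LHCB1.5, LHCB4.2, LHCB4.3, LHCB7, PSAD1, PSAH1, PSAK, PSBO2, PSBP1 and PSBR. Peaks of TT1 and of neither NTT library were found at LHCB2.1 and PSBQ2 (4.35% of the genes, beside 5.09% of all coding genes). Both NTT libraries and not TT1 had a peak at LHCA3, LHCB6, PSAD2 and PSAF (8.7%, beside 4.22%). NTT replicate 2 alone had a peak at LHCA5, LHCA6, LHCB1.1 and LHCB1.3 (8.7%, beside 1.46%), where LHCB1.1 and LHCB1.3 share the same peak. NTT replicate 1 alone had a peak at PSAG, PSAO and PSBTN (6.52%, beside 8.13%). LHCB4.1 had a peak in TT1 and NTT replicate 1.

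The genes with no peak were LHCA1, LHCA4, LHCB1.2, LHCB2.2, LHCB2.3, LHCB3 and LHCB5 among the antennae, PSAE1, PSAE2, PSAH2, PSAL, PSAN and PSAP in photosystem I, and PSBO1, PSBP2, PSBQ1, PSBS, PSBW, PSBX and PSBY in photosystem II. They include the only genes for LHCB3, a component of the LHCII trimer, for LHCB5 (CP26) and for PSBS, the protein needed for energy-dependent quenching. An absent peak means that no region passed the peak caller's threshold in that library, and at unknown depth this does not show that the protein was absent from the gene.

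**Figure D2:**
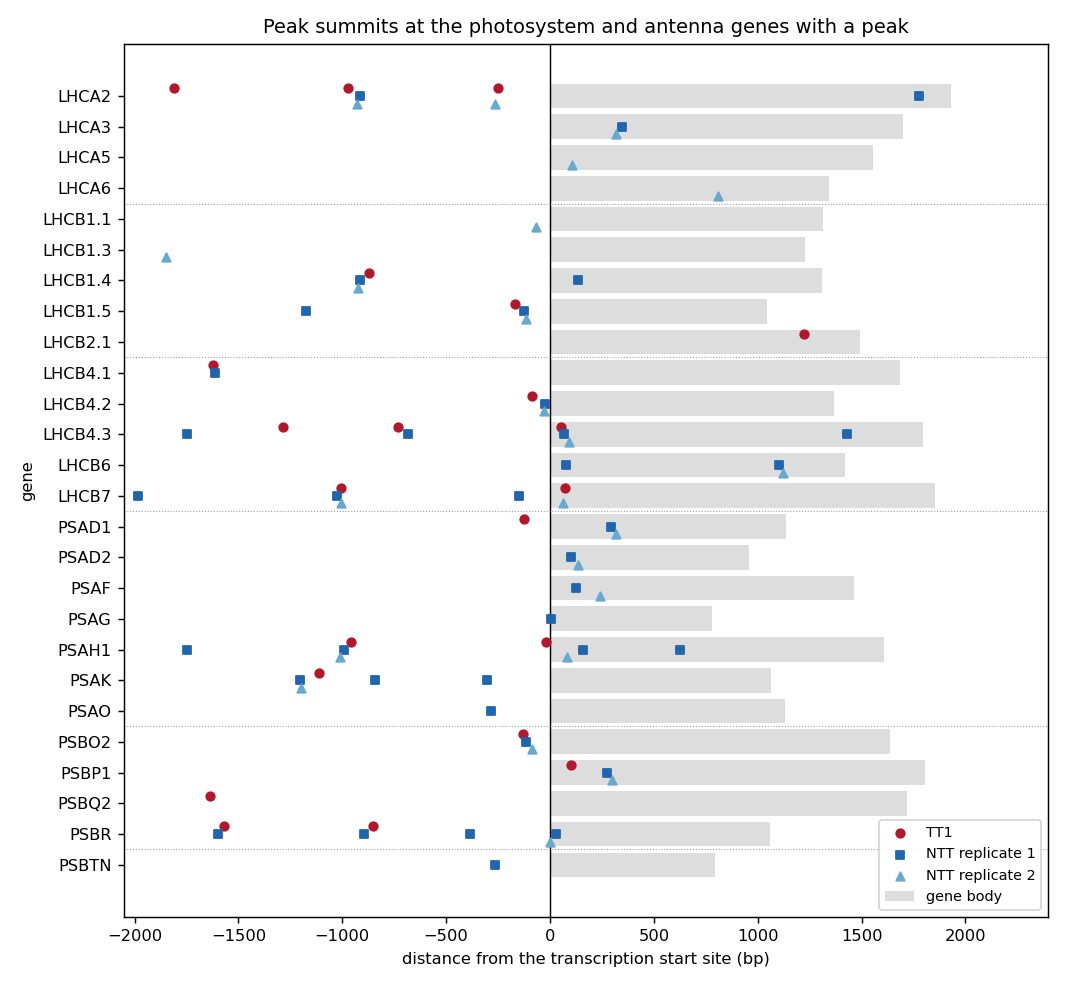
Positions of all peak summits in the windows of the 26 genes with a peak in at least 1 library, in bp from the TSS (x axis), with a row for each gene (y axis, grouped by role between dotted lines), the gene body in grey, and TT1 as red circles, NTT replicate 1 as blue squares and NTT replicate 2 as light blue triangles. At PSAD2, PSAF and LHCA3 the NTT summits lie inside the gene with no TT1 summit, and at PSAD1 the TT1 summit (−127) is upstream of the start and the NTT summits (+295 and +318) are downstream of it.

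Of the 6 LHCA genes, TT1 called 1 (16.7%), NTT replicate 1 called 2 (33.3%) and NTT replicate 2 called 4 (66.7%). All coding genes had 38.3%, 44.7% and 26.8% in the same order. LHCA2 (AT3G61470, chr3:22745514-22747444, plus strand) encodes an LHCI protein that forms a heterodimer with LHCA3. It had TT1 summits at −1812, −974 and −252, with fold enrichments of 2.48, 5.24 and 3.12. The NTT summits were at −917 (6.95) and +1775 (4.55) in replicate 1 and at −928 (3.79) and −263 (3.33) in replicate 2. A summit just under 1 kb upstream was therefore present in all 3 libraries, and a summit closer to the start in TT1 and NTT replicate 2. The site just under 1 kb upstream also lies in the window of BRH1 (AT3G61460), but the start of LHCA2 is the nearest start for both sites. The TT1 peak at −1812 lies in that window as well and is nearest to the start of BRH1.

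LHCA3 (AT1G61520, chr1:22699715-22701412) had no TT1 peak. Its NTT summits were at +347 (fold enrichment 5.42) in replicate 1 and at +320 (3.67) in replicate 2, in the 5′ untranslated region of the longest model. LHCA3 has annotated transcript starts 178 and 358 bp downstream of the outermost start, so that these summits lie 11 and 38 bp upstream of the innermost one. The summits of LHCA5 (+106, 3.49) and LHCA6 (+811, 3.35), each in NTT replicate 2 alone, fell in coding exons. LHCA5 and LHCA6 are minor LHCI proteins that link photosystem I to the NDH complex. Their peaks stood at the 26.9 and 19.5 percentile of fold enrichment in that library.

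Of the 9 LHCII genes, TT1 called 3 (33.3%, beside 38.3% of all coding genes), NTT replicate 1 called 2 (22.2%, beside 44.7%) and NTT replicate 2 called 4 (44.4%, beside 26.8%). LHCB1.4 (AT2G34430, symbol LHB1B1, chr2:14524607-14525918) and LHCB1.5 (AT2G34420, symbol LHB1B2, chr2:14522524-14523568) encode LHCII proteins and are transcribed away from each other. They share a peak between them whose summit was at 14523735 in TT1, 14523692 in NTT replicate 1 and 14523685 in replicate 2. It had a fold enrichment of 4.14 in TT1 (54.7 percentile), 7.14 in NTT replicate 1 (68.6 percentile) and 3.8 in NTT replicate 2 (43.2 percentile). These summits are at −167, −124 and −117 of LHCB1.5, within the run printed above, and at −872, −915 and −922 of LHCB1.4. This peak is therefore 1 site counted at 2 genes. A further summit was at +135 of LHCB1.4 in NTT replicate 1 (5.25).

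The other LHCB1 copies lie together on chromosome 1. NTT replicate 2 had a peak at −67 of LHCB1.1 (AT1G29920, symbol CAB2) with a fold enrichment of 4.26 (64 percentile), and the same peak is at −1849 of the divergent LHCB1.3 (AT1G29930, symbol CAB1). LHCB1.2 (AT1G29910, symbol CAB3), the third gene of this cluster, had no peak. LHCB2.1 (AT2G05100) had a TT1 summit at +1221 in a coding exon (4.02, 51.1 percentile) and no NTT peak. LHCB2.2, LHCB2.3 and LHCB3 had none. Because the authors kept uniquely mapped reads, the share of 50 bp stretches in each window that occur at 1 place in the genome was counted. It was 92.1% for LHCB1.1, 91% for LHCB1.2, 93.7% for LHCB1.3, 89.4% for LHCB1.4, 88.5% for LHCB1.5, 91.1% for LHCB2.1 and 89.5% for LHCB2.2. The lowest values in the set were 74.7% for LHCA3 and 81.9% for PSAD1, and 37 of the 46 genes had at least 95%. The part of repeated sequence in the calls was not tested.

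Of the 6 genes of the minor antenna, TT1 called 4 (66.7%, beside 38.3% of all coding genes), NTT replicate 1 called 5 (83.3%, beside 44.7%) and NTT replicate 2 called 4 (66.7%, beside 26.8%). LHCB4 (CP29), LHCB5 (CP26) and LHCB6 (CP24) are monomeric proteins that connect LHCII trimers to the photosystem II core. LHCB4.2 (AT3G08940, chr3:2717557-2718923) had a summit at −85 in TT1 (fold enrichment 4.17), −25 in NTT replicate 1 (5.05) and −27 in replicate 2 (3.34). All 3 fall within the printed run, which holds CCAATC from −76 to −71 and GATAAG from −9 to −4. LHCB4.3 (AT2G40100, chr2:16745628-16747424) had a summit just inside the gene in each library, at +55 in TT1 (4.69), +68 in NTT replicate 1 (8.41) and +91 in replicate 2 (3.96). In TT1 and NTT replicate 1 it also had a summit farther upstream, at −734 (2.87) and −683 (5.59). Further summits were at −1285 in TT1 (2.59) and at −1748 (4.31) and +1431 (8.6) in NTT replicate 1. The peak at +1431 was nearest to the start of AT2G40110.

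LHCB4.1 (AT5G01530) differed from its copies. Its only peak was at −1622 in TT1 (3.84) and −1611 in NTT replicate 1 (9.25), where the nearest start is that of AIRP2. LHCB7 (AT1G76570, chr1:28728998-28730851), a rarely expressed antenna protein, had its strongest peak about 1 kb upstream, at −1006 in TT1 (6.33, 91 percentile), −1024 in NTT replicate 1 (10.8, 94.7 percentile) and −1006 in replicate 2 (4.37, 67.9 percentile). The nearest start to that peak is that of CP12-3, whose product regulates Calvin cycle enzymes. Peaks next to the LHCB7 start itself were at +73 in TT1 (3.55), −149 in NTT replicate 1 (6.35) and +63 in replicate 2 (3.04), and a further summit was at −1984 in NTT replicate 1 (4.77). LHCB6 (AT1G15820) had NTT peaks only, at +76 (4.05) and +1104 (5.05) in replicate 1 and +1122 (3.42) in replicate 2. The site repeated in both NTT libraries is thus in the coding part near the end of the gene, where the start of AT1G05207 is nearest, and not at its own start. LHCB5 had no peak.

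Of the 13 photosystem I subunit genes, TT1 called 3 (23.1%, beside 38.3% of all coding genes), NTT replicate 1 called 7 (53.8%, beside 44.7%) and NTT replicate 2 called 5 (38.5%, beside 26.8%). PSAD and PSAE form the stromal docking site for ferredoxin, and PSAF binds plastocyanin on the lumenal side. PSAD1 (AT4G02770, chr4:1229031-1230164, symbol PSAD-1) had its TT1 summit at −127 (fold enrichment 3.21, 20 percentile). Its NTT summits were at +295 in replicate 1 (4.55, 22 percentile) and +318 in replicate 2 (4.66, 77.1 percentile), both in the coding exon. The TT1 and NTT summits were 422 and 445 bp apart and the peaks did not overlap, whereas the NTT summits were 23 bp apart. The printed PSAD1 run covers the TT1 summit only.

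PSAD2 (AT1G03130, chr1:753307-754262) encodes the second PSAD protein and had NTT peaks at a similar place, at +100 in replicate 1 (4.72) and +135 in replicate 2 (3.54), with no TT1 peak. PSAF (AT1G31330, chr1:11214676-11216141) had NTT summits at +126 in replicate 1 (7.42, 71.9 percentile) and +242 in replicate 2 (3.79, 42.5 percentile). These are 116 bp apart, the widest distance between NTT replicates in the set, although the peaks overlap almost fully at 11215763-11216164 and 11215764-11216150. PSAE1 and PSAE2 had no peak.

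PSAH, PSAL and PSAO lie on the side of photosystem I where LHCII docks during state transitions, and PSAG and PSAK are small membrane subunits in contact with LHCI. PSAH1 (AT3G16140, chr3:5467987-5469594) had 2 sites in common between the libraries. The upstream site was at −959 in TT1 (5.7, 84.7 percentile), −993 in NTT replicate 1 (12.4, 98.4 percentile) and −1011 in replicate 2 (3.45, 24.9 percentile). It lies between PSAH1 and ASPGB1 (AT3G16150), an asparaginase gene, and in NTT replicate 1, where the start of ASPGB1 is nearest, it had the highest fold enrichment of the set. The site at the start was at −20 in TT1 (3.58), within the printed run, and at +157 (7.8) and +80 (4.31) in NTT replicates 1 and 2. NTT replicate 1 had further summits at +626 (3.75) and −1746 (5.64). PSAH2 (AT1G52230), the second copy, had no peak in any library.

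PSAK (AT1G30380, chr1:10722183-10723247) had a peak 1.1 to 1.2 kb upstream in all libraries, at −1111 in TT1 (6.06), −1203 in NTT replicate 1 (8.85) and −1200 in replicate 2 (3.52). The start of DLAH (AT1G30370) is nearest to it and to a further peak with its summit at −844 in NTT replicate 1 (6.74). The only peak at PSAK whose nearest start was its own was at −305 in NTT replicate 1 (5.81). PSAG had a summit at +4 (3.94, 8.9 percentile) and PSAO at −286 (4.07, 10.9 percentile), both in NTT replicate 1 alone. The PSAO peak was nearest to the start of AT1G08390. PSAL had no peak, nor had PSAN, which acts on the lumenal side. PSAP (AT2G46820, symbol PSI-P), placed in this group by its name alone, had none either.

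Of the 7 genes of the oxygen-evolving proteins, TT1 called 4 (57.1%, beside 38.3% of all coding genes) and each NTT library called 3 (42.9%, beside 44.7% in replicate 1 and 26.8% in replicate 2). PSBO stabilizes the manganese cluster that splits water, PSBP and PSBQ are extrinsic proteins that sit over it, and PSBR is a small subunit needed for their stable binding. PSBO2 (AT3G50820, chr3:18890874-18892508) had 1 peak in each library, and no other coding gene had these summits in its window. The summit was at −130 in TT1 (6.29, 90.6 percentile), −114 in NTT replicate 1 (8.31, 81.1 percentile) and −86 in replicate 2 (4.91, 83.4 percentile). The highest fold enrichment of the set in NTT replicate 2 was this peak. The 3 summits span 44 bp. PSBO1 (AT5G66570), the copy that carries most of the PSBO protein, had no peak.

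PSBP1 (AT1G06680, chr1:2047634-2049439) had a weak TT1 peak at +102 (2.39, 0.5 percentile) and NTT peaks at +275 in replicate 1 (5.5, 42.9 percentile) and +298 in replicate 2 (3.71, 38.1 percentile). An annotated transcript start lies 252 bp inside the gene, and the NTT summits are 23 and 46 bp downstream of it. PSBP2, its copy, had no peak. PSBR (AT1G79040, chr1:29735952-29737009) had TT1 summits at −1569 (3.7) and −852 (3.11). NTT replicate 1 had summits at −1596 (5.18), −893 (5.07), −383 (4.53) and +29 (3.77), and replicate 2 at −1 (3.18). The sites common to TT1 and NTT replicate 1 were thus both upstream, and the site common to the NTT libraries was at the start. The upstream site farther from the gene was nearest to the start of AT1G79030. By peak center, the closer upstream site was nearest to that start in NTT replicate 1 and to the start of PSBR in TT1. The TT1 peak there was the wider (528 bp, beside 337 bp), so this difference is one of peak centers and was not measured at the summits. PSBQ2 (AT4G05180, symbol PSBQ-2) had a TT1 peak at −1638 with a fold enrichment of 6.99 (95.3 percentile), the highest of the set in TT1. The nearest start to this peak is that of ATK5, a kinesin gene, and PSBQ1 (symbol PSBQA) had no peak. Among PSBS (symbol NPQ4), PSBTN, PSBW, PSBX and PSBY, the only peak was at −266 of PSBTN in NTT replicate 1 (4.62), nearest to the start of RBL.

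For PSBO, PSAH and PSBP, 1 copy was thus called in all 3 libraries and the other in none. For PSAD, 1 copy was called in all 3 libraries and the other in both NTT libraries. For PSBQ, 1 copy was called in TT1 and the other in none, whereas neither PSAE copy was called. Of all coding genes, 20.2% were called in all 3 libraries and 47.9% in none, and other pairs of copies were not counted. The TT1 call of PSBP1 rests on a peak at the 0.5 percentile with a −log10 q of 12.3.

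The position of the summits within the windows was compared next. Between the NTT libraries the closest summits of a gene were a median of 20.5 bp apart over 16 genes, 15 of them within 100 bp, and the peaks overlapped at all 16. TT1 and NTT replicate 1 were a median of 43 bp apart over 13 genes, with 11 within 100 bp. TT1 and NTT replicate 2 were a median of 51 bp apart over 12 genes, with 9 within 100 bp. The exceptions between TT1 and NTT were PSAD1, PSBP1 and, with NTT replicate 2, PSBR. The site shared by LHCB1.4 and LHCB1.5 was counted at both genes in these values. Over all coding genes, 24.4% were called in both NTT libraries and 23.4% with overlapping peaks, so overlap was not particular to these genes. Summits of all 3 libraries lay within 100 bp at 9 genes (19.6%, beside 14.8%). The median distances were not computed for all coding genes.

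Summits from 0 to +500 bp, inside the start of the gene, were found at 3 genes in TT1 (6.52%, beside 12.1% of all coding genes), 11 genes in NTT replicate 1 (23.9%, beside 19.7%) and 9 genes in replicate 2 (19.6%, beside 10.7%). Both NTT libraries had such a summit at 7 genes, LHCA3, LHCB4.3, PSAD1, PSAD2, PSAF, PSAH1 and PSBP1 (15.2%, beside 9.23%). At LHCA3, PSAD1, PSAD2, PSAF and PSAH1 TT1 had none there (10.9%, beside 3.42%), although at PSAH1 the TT1 summit was 20 bp outside the gene and its peak overlapped those of NTT. Within 500 bp upstream of the start, the counts were 6 in TT1 (13%, beside 11.9%), 8 in NTT replicate 1 (17.4%, beside 12.6%) and 6 in replicate 2 (13%, beside 7.47%). Farther upstream, to 2 kb, they were 9 in TT1 (19.6%, beside 18.5%), 9 in NTT replicate 1 (19.6%, beside 21.1%) and 6 in replicate 2 (13%, beside 9.9%). Relative to all genes, the shares were higher in both NTT libraries on either side of the start. In TT1 the share just inside the gene was lower. These shares rest on 3 to 11 genes each and on 1 TT1 library. With the same number of best peaks from every library, NTT replicate 1 no longer called LHCA3, PSAD1, PSAD2 and PSBP1. TT1 no longer called PSAD1 and PSBP1. The shares by position were not counted in that setting.

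The fold enrichment of the best peak of each called gene did not stand out in any library. Its median was 4.17 over 15 genes in TT1 (range 2.39 to 6.99), where all called coding genes had 4.22. It was 6.22 over 20 genes in NTT replicate 1 (3.94 to 12.4), where all called coding genes had 6.44, and 3.79 over 20 genes in NTT replicate 2 (3.18 to 4.91), where all called coding genes had 3.97. Of the distinct peaks in the windows, 3 of 21 in TT1, 2 of 35 in NTT replicate 1 and 0 of 21 in replicate 2 were in the top 10% of their library by fold enrichment. In TT1 these were at PSBO2, LHCB7 and PSBQ2, and in NTT replicate 1 at LHCB7 and PSAH1. The nearest annotated start was that of the photosystem or antenna gene itself for 15 of 21 peaks in TT1, 21 of 35 in NTT replicate 1 and 18 of 21 in replicate 2. Of these strongest peaks, that of PSBO2 was nearest to its own start, and those of LHCB7, PSBQ2 and PSAH1 were nearest to the start of a neighbour.

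**Figure D3:**
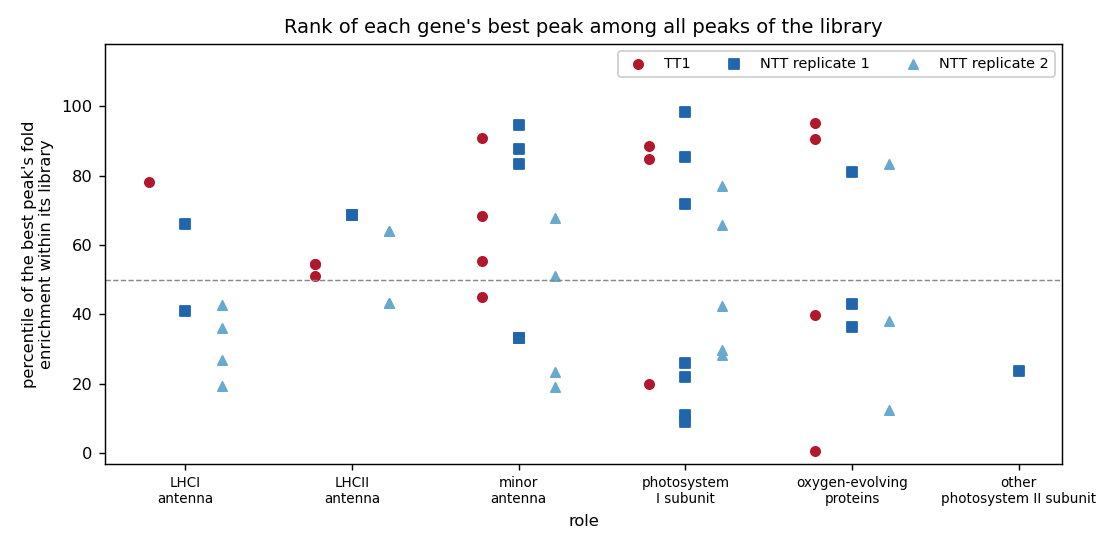
Percentile of the fold enrichment of each called gene's best peak among all peaks of its own library (y axis, 0 to 100), by role (x axis), for TT1 (red circles), NTT replicate 1 (blue squares) and NTT replicate 2 (light blue triangles), with the library median as a dashed line. Genes that share a peak fall on the same point, and the points run from the 0.5 percentile (PSBP1 in TT1) to the 98.4 percentile (PSAH1 in NTT replicate 1).

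Short sequence elements were counted on both strands from 250 bp upstream to 50 bp downstream of each start. A G-box (CACGTG) was found at 17 of the 46 genes, or 37%, beside 7.7% of all 27443 promoters of that length. The ABRE core (ACGTG), which is contained in the G-box, was found at 24 genes (52.2%, beside 26.8%), the I-box (GATAAG) at 19 (41.3%, beside 14.7%) and CCAAT at 34 (73.9%, beside 51.7%). CCAATC, a longer form of the CCAAT box, was found at 15 genes (32.6%, beside 12.4%). The W-box, which is bound by WRKY factors and was searched as TTGACC and with T as its last base (TTGACT), was found at 6 genes (13%, beside 32.5%). The GAGA repeat (GAGAGAG), which is bound by BPC factors, was found at 2 genes (4.35%, beside 12.5%). TATAAA was found at 21 genes (45.7%, beside 52.2%) and AAAATATCT (evening element) at 1 (2.17%, beside 2.83%). These are matches of letters and not measured sites of any factor.

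**Figure D4:**
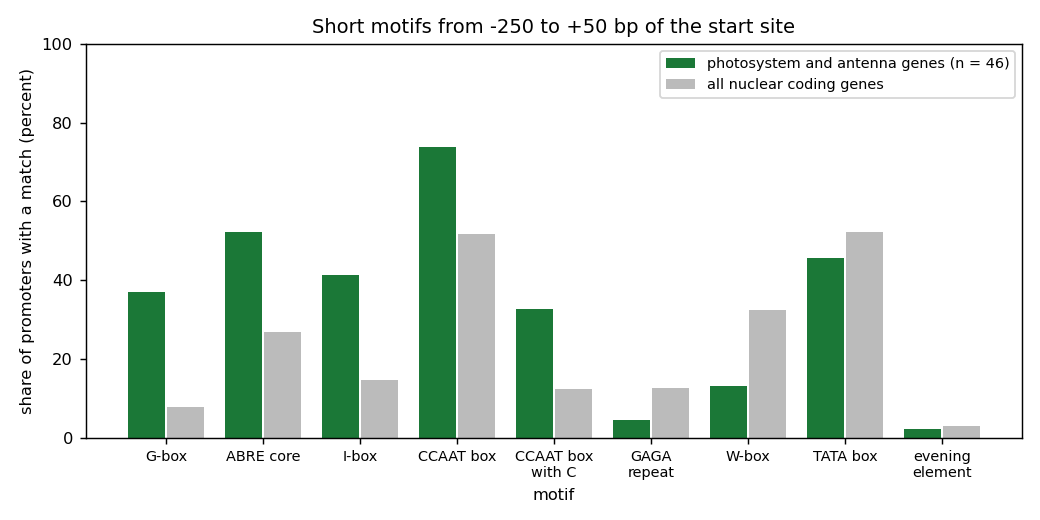
Share of promoters, in percent (y axis), with at least 1 match to each motif on either strand from 250 bp upstream to 50 bp downstream of the start, for the 46 photosystem and antenna genes (green) and all nuclear coding genes (grey). The green bar is the higher for the G-box (37% and 7.7%) and I-box (41.3% and 14.7%) and the lower for the W-box (13% and 32.5%) and GAGA repeat (4.35% and 12.5%).

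A G-box lay in the promoters of 8 of the 26 genes with a peak in any library and of 9 of the 20 genes without. PSAH1 has it at +18 to +23 and PSAH2 at −67 to −62 and −12 to −7, so that the called and the uncalled copy both carry the element. An I-box was in the promoters of 12 of the 26 genes with a peak and 7 of the 20 without, and a W-box in 5 of 26 and 1 of 20.

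Within 100 bp of the summits, a W-box was found at 4 of 21 peaks of these genes in TT1 (19%, beside 31.8% of all peaks of the library), 8 of 35 in NTT replicate 1 (22.9%, beside 28.1%) and 2 of 21 in replicate 2 (9.52%, beside 27.2%). The GAGA repeat was at 3 of 21 in TT1 (14.3%, beside 16%), 4 of 35 in NTT replicate 1 (11.4%, beside 21.5%) and 2 of 21 in replicate 2 (9.52%, beside 26.1%). The I-box was at 7 of 21 in TT1 (33.3%, beside 10.9%), 7 of 35 in NTT replicate 1 (20%, beside 11.4%) and 5 of 21 in replicate 2 (23.8%, beside 11.9%). The G-box was at 4 of 21 in TT1 (19%, beside 9.91%), 3 of 35 in NTT replicate 1 (8.57%, beside 7.37%) and 5 of 21 in replicate 2 (23.8%, beside 15.5%). As in the promoters of these genes, which overlap many of the peaks, the shares with an I-box were higher than over all peaks. Those with a W-box were lower. The share with a GAGA repeat was lower in both NTT libraries and near that of all peaks in TT1. With 50 bp in place of 100 bp the I-box and W-box turned in NTT replicate 1. There 1 of 35 peaks had an I-box (2.86%, beside 5.67%) and 5 of 35 a W-box (14.3%, beside 13.5%). By gene, 13 of the 26 called genes had an I-box near a summit of at least 1 library, 11 an ABRE core, 8 CCAATC, 7 a W-box, 5 a G-box and 5 a GAGA repeat. With 50 bp the I-box count was 4. These counts pool the peaks of 3 libraries and were not made for all called coding genes, so they cannot be read as high or low.

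Genes that work with the photosystems were counted in the same windows from lists drawn by name. Of 22 chlorophyll synthesis genes, 6 were called in TT1 (27.3%, beside 38.3% of all coding genes), 10 in NTT replicate 1 (45.5%, beside 44.7%), 8 in NTT replicate 2 (36.4%, beside 26.8%) and 3 in all 3 libraries (13.6%, beside 20.2%). The 3 encode subunits of magnesium chelatase, the first enzyme of the chlorophyll branch. CHLD had its best summits at −1661 in TT1 (5.03), −987 in NTT replicate 1 (8.92) and −985 in replicate 2 (4.31). CHLI1 had them at −152 in TT1 (3.29), −158 in NTT replicate 1 (5.08) and −156 in replicate 2 (3.89). CHLH (symbol GUN5) had them at −963 in TT1 (3.9), −989 in NTT replicate 1 (7.71) and −1001 in replicate 2 (3.22).

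Of 13 nuclear genes of electron transport and ATP synthase, 5 were called in TT1 (38.5%, beside 38.3% of all coding genes), 5 in NTT replicate 1 (38.5%, beside 44.7%), 6 in NTT replicate 2 (46.2%, beside 26.8%) and 4 in all 3 libraries (30.8%, beside 20.2%). The best ranked of them had summits at their starts. FD2 (symbol FED A), the main leaf ferredoxin, had them at +6 in TT1 (5.62), +6 in NTT replicate 1 (9.51) and −15 in replicate 2 (5.29). PETC, the Rieske protein of the cytochrome complex, had them at +119 in TT1 (4.45), +59 in NTT replicate 1 (8.73) and +83 in replicate 2 (5.91). LFNR1, a ferredoxin-NADP reductase, had them at +26 in TT1 (4.6), +24 in NTT replicate 1 (9.63) and +33 in replicate 2 (4.2).

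Of 17 Calvin cycle genes, 8 were called in TT1 (47.1%, beside 38.3% of all coding genes), 10 in NTT replicate 1 (58.8%, beside 44.7%), 7 in NTT replicate 2 (41.2%, beside 26.8%) and 3 in all 3 libraries (17.6%, beside 20.2%), namely PGK1, RBCS1A and RBCS2B. At PGK1 the site was far upstream, at −1921 in TT1 (3.76), −1919 in NTT replicate 1 (8.05) and −1922 in replicate 2 (4.11). RBCS2B, a Rubisco small subunit gene, had its best summits at −90 in TT1 (4.02), −155 in NTT replicate 1 (5.85) and −680 in replicate 2 (3.4). Those of RBCS1A were at −1723 in TT1 (4.24), −1468 in NTT replicate 1 (4.65) and +209 in replicate 2 (3.26).

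Of 22 light and plastid regulators, 14 were called in TT1 (63.6%, beside 38.3% of all coding genes), 16 in NTT replicate 1 (72.7%, beside 44.7%), 15 in NTT replicate 2 (68.2%, beside 26.8%) and 11 in all 3 libraries (50%, beside 20.2%). PIF1 (symbol PIL5), a bHLH repressor of chlorophyll synthesis in the dark, had its best summits at +268 in TT1 (9.58, 99.9 percentile), +312 in NTT replicate 1 (10.8, 94.9 percentile) and +301 in replicate 2 (6.39, 97.9 percentile). PIF3 had them at +29 in TT1 (7.04, 95.5 percentile), +38 in NTT replicate 1 (14.1, 99.6 percentile) and +822 in replicate 2 (6.04, 96.4 percentile). SIG4, a sigma factor of the plastid RNA polymerase, had them at −1543 in TT1 (7.44, 97.1 percentile), −1571 in NTT replicate 1 (11.3, 96.1 percentile) and −1545 in replicate 2 (5.59, 93 percentile). These are the best ranked of the list by choice, and others called in all 3 libraries stood lower, such as LHY with the 80.5, 13.6 and 52.6 percentile in TT1, NTT replicate 1 and replicate 2.

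Of 17 genes of antenna insertion, photosystem assembly and light stress, 11 were called in TT1 (64.7%, beside 38.3% of all coding genes), 13 in NTT replicate 1 (76.5%, beside 44.7%), 8 in NTT replicate 2 (47.1%, beside 26.8%) and 7 in all 3 libraries (41.2%, beside 20.2%). HCF136, a photosystem II assembly factor, had its best summits at +70 in TT1 (4.73), +122 in NTT replicate 1 (9.55) and +117 in replicate 2 (5.11). THF1 (symbol PSB29) had them at −1814 in TT1 (5.66), −1834 in NTT replicate 1 (10.7) and −1859 in replicate 2 (4.23). PSB28, a photosystem II assembly protein, had them at −192 in TT1 (5.38), −188 in NTT replicate 1 (6.65) and +102 in replicate 2 (4.52). The differences in counts between these lists and the photosystem and antenna genes were not tested.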

How the data were processed

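Reads (single-end, 50 bp) of the 3 ChIP and 3 input libraries had been mapped by the authors with BWA to TAIR10, kept when uniquely mapped with SAMtools, cleared of duplicates with Picard, and used for peak calling with MACS2 version 2.1.2 for each ChIP library on its own. No version of BWA, SAMtools or Picard is given in the sources used here. The deposited lists hold a fold enrichment (a ratio), −log10 p and −log10 q values and a score, all as the authors' MACS2 run wrote them. The fold enrichment and −log10 q were used. Depth is unknown, so no count interval was given. Read mapping and peak calling were taken as they are.

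Summits were assigned with Python version 3.11.15 to genes of the RefSeq annotation of TAIR10.1, whose nuclear coordinates were used directly (0 peaks ended beyond their chromosome). The TSS was the outermost annotated start. Assignment was tested on simulated data. The genes, gene lists and alternatives were chosen with earlier results of these data known. List symbols that matched no gene or several genes were left out (PPOX, DVR, PETM, RPI3, SIG1, OHP1, SEP1 and SEP2). Each gene was named at least once, with full values for those called in all 3 libraries, in TT1 alone or in both NTT libraries alone, and for up to 3 genes of each list called in all libraries, by mean percentile of fold enrichment. Peak lists carry no replicate error for TT1, and no test was run. Alternatives were other windows, thresholds, overlaps and motif flanks, and leaving out an NTT library.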

Additional observations from a re-analysis of the deposited data

How the results depend on the processing

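No paired analysis was possible because the inputs have no peak list here and no test was run. Of 57 alternatives over 14 counts, 45 stayed within 1.5 times the count reported and 12 did not. TT1 called 9 genes with summits within 500 bp of the TSS (19.6%, beside 23.4% of all coding genes). NTT replicate 1 called 10 genes when the same number of best peaks was taken from every library (21.7%, beside 25.1%). NTT replicate 2 called 12 genes at a −log10 q of at least 20 (26.1%, beside 16.6% of all coding genes). Under alternatives chosen after seeing the data, both NTT libraries called 10 genes at that threshold (21.7%, beside 15.8%) and 9 with the same number of best peaks (19.6%, beside 18.5%). Without NTT replicate 1, replicate 2 called 20 genes (43.5%, beside 26.8%) and shared 12 with TT1 (26.1%, beside 21.1%). Without NTT replicate 2, replicate 1 called 20 genes (43.5%, beside 44.7%) and shared 13 with TT1 (28.3%, beside 32.3%). The share in common with TT1 was thus above that of all coding genes for replicate 2 and below it for replicate 1. With 50 bp to either side of the summit, 3 genes had a G-box, 7 an ABRE core, 4 an I-box, 5 CCAATC and 3 a GAGA repeat. With 150 bp, 8 had a GAGA repeat and 11 a W-box. A shorter stretch can only hold as many matches or fewer, and these counts by gene were not made for all called coding genes. Unknown depth and the lack of a TT1 replicate limit every statement on an absent peak.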
